A study of Homo sapiens with 8 samples.

Results

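The response of HNF4G-expressing prostate cancer cells to BET inhibition was examined in 4 of the 8 RNA-seq libraries of the series, the 2 labelled HNF4G-ABBV-075 and the 2 labelled HNF4G-DMSO, over the 17876 genes whose mean across all 8 was 10 normalized counts or more. The cells were 22Rv1, a castration-resistant line of human prostate cancer in which genes of gut and liver are transcribed, and they carried an HNF4G transgene driven by the murine stem cell virus promoter. They were given 25 nM ABBV-075 (mivebresib) or the solvent DMSO for 24 hours. The other 4 libraries, GFP-DMSO and GFP-ABBV-075, came from 22Rv1 cells with a GFP transgene behind the same promoter and under the same treatments, and they are used here to estimate the spread of each gene and to set the 2 lines side by side. No label names separate clones, derivations or cultures, and the p-values therefore cover just the library-to-library spread, possibly a technical one. A normalized count is the number of reads of a gene over the size factor of its library. Without a spike-in, a shift of the whole transcriptome would stay hidden.

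BET proteins, with BRD2 and BRD3 among them, bind acetylated lysines on histones and help recruit P-TEFb, the kinase that releases paused RNA polymerase II, and transcripts that depend on large enhancers, MYC among them, are known to be sensitive to their inhibition. HNF4G, a nuclear receptor, is a transcription factor of intestine and liver, and in prostate cancer cells it drives genes of bile, steroid and drug metabolism, plasma proteins and the intestinal brush border. A transgene behind a viral promoter keeps HNF4G transcribed where the cell's own gene may not be.

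The 4 HNF4G libraries held between 34025105 and 40262678 reads, and the 4 GFP libraries between 31508275 and 36926984. The identity of the line was visible in every library. All 8 fixed markers of the prostate cancer line were measured, and their summed level was between 95808 and 104715 normalized counts in HNF4G-DMSO and between 103117 and 110181 in HNF4G-ABBV-075. None of the 3 basal, 5 immune and 3 endothelial markers reached the mean of 10. Of 4 stromal markers 3 reached it, with a summed level of all 4 between 188 and 270 normalized counts in HNF4G-DMSO and between 94.1 and 162 in HNF4G-ABBV-075, and of 4 neuroendocrine markers 2 did, at 2970 to 3315 and 2713 to 3061 for the 4. The part of these in any result was not tested. The libraries did not stand equally close to each other. The mean GC content of the transcripts the reads came from was 46.28% in HNF4G-DMSO number 2 and 46.27% in HNF4G-ABBV-075 number 1, against 47.38% to 47.85% in the other 6. Each HNF4G group therefore held 1 library of low GC content, and what this does to the comparison is described at the end. In what follows, the 2 values of a group are given as number 1 and then number 2, changes are differences of group means of log2(normalized count + 1) with their SE, tests are limma's over 17876 genes, two-sided, and a gene was called at a Benjamini-Hochberg adjusted p under 0.05. Every called gene named below kept its call when GC content and length were corrected for and without any 1 of the 8 libraries unless the text says otherwise. For the largest changes, keeping the call under that correction and without each HNF4G library was part of the choice. Where the spread came from the 4 HNF4G libraries only, 45 of the 213 named genes lost their call.

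The comparison asked which transcripts BET inhibition moves in cells that keep making HNF4G. ABBV-075 changed 5575 genes, 31.2% of those tested, with 2304 higher (12.9%) and 3271 lower (18.3%). Falls were larger than rises. Among called genes 1605 fell and 743 rose by at least 1 on the log2 scale, 471 and 136 by at least 2, and 131 and 28 by at least 3, while the median of all tested genes was 0.02. The number of higher genes was the more dependent on single libraries, at 1462 without HNF4G-DMSO number 2. For 2844 genes, 955 higher and 1889 lower, the call held without each HNF4G library and with GC content and length corrected for. The share of lower genes was larger among protein-coding genes of low level, 26.8% in the lowest quintile by mean level and 28.7% in the next against 15.3% in the highest, and the median SE was 0.32, 0.17 and 0.11 in those quintiles.

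**Figure D1:**
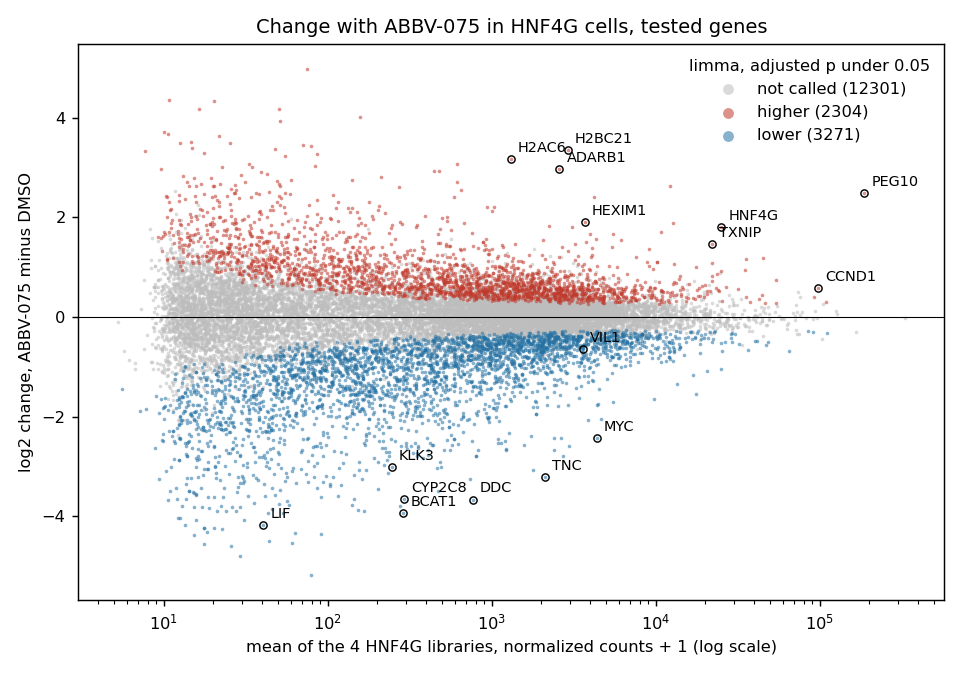
Log2 change with ABBV-075 in HNF4G cells (vertical axis, ABBV-075 minus DMSO) against the mean of the 4 HNF4G libraries (horizontal axis, normalized counts + 1, log scale), 1 point per tested gene, with 2304 higher genes in red, 3271 lower in blue and 12301 not called in grey. PEG10 and CCND1 lie to the right among the genes that rose, and falls such as those of BCAT1 and DDC lie further left.

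HNF4G itself, ENSG00000164749 at 75407914 to 75566834 of chromosome 8 (GRCh38), carried the transgene. Its level was 10110 and 12104 normalized counts in the HNF4G-DMSO libraries and reached 43972 and 34116 under ABBV-075, against 1088 and 993 in GFP-DMSO and 206 and 213 in GFP-ABBV-075. HNF4G rose by 1.81 ± 0.15 (limma, adjusted p = 1.6e-04). Its 2 HNF4G groups did not overlap, which held for all 5575 called genes and for 10550 of the 17876 tested, and so adds nothing to a call. Reads of the transgene and of the cell's own HNF4G cannot be told apart in counts per gene.

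Genes of the inhibitor's own pathway were called in part. HEXIM1, which holds P-TEFb inactive, went from 1687 and 1425 normalized counts to 5131 and 6519, a change of 1.90 ± 0.14 (limma, adjusted p = 1.1e-04). Both values under ABBV-075 lay above those under DMSO, as for every gene called higher. Among the BET genes BRD2 rose from 9703 and 9717 to 13903 and 13563 (0.50 ± 0.08). AFF4, a scaffold of the super elongation complex, was called at 0.59 ± 0.16, a call lost without either GFP-ABBV-075 library, HNF4G-ABBV-075 number 1 or HNF4G-DMSO number 1. Of 16 measured genes of P-TEFb, its partners and the BET family 4 were higher and 0 lower, against 12.9% and 18.3% of all genes, and the remaining 12, with CDK9, CCNT1 and BRD3 among them, were not called. The count was 2 without either GFP-ABBV-075 library, and 10 with GC content and length corrected for. The median of the 16 was 0.19.

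MYC, the growth-driving transcription factor, fell from 8252 and 6529 normalized counts to 1258 and 1475, a change of -2.43 ± 0.14 (limma, adjusted p = 4.2e-05). PVT1, a non-coding gene beside MYC, fell from 264 and 196 to 88.3 and 77.2 (-1.45 ± 0.22). MXD1, which competes with MYC for its partner MAX, rose by 0.69 ± 0.11. MXD4, of the same family, was called at 1.44 ± 0.36, a call lost without HNF4G-ABBV-075 number 2 or HNF4G-DMSO number 2. MAX was at 0.09 ± 0.11 and MNT at 0.00 ± 0.19, neither called.

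Genes of ribosome assembly and nucleotide synthesis, many of which are known MYC targets, mostly fell. Of 34 measured ribosome biogenesis genes 26 were lower and 0 higher, against 18.3% lower among all genes, with a median of -0.65. NOP16, a nucleolar protein, went from 1823 and 1782 normalized counts to 712 and 704 (-1.35 ± 0.10), and WDR12, a subunit of the PeBoW complex of large-subunit maturation, from 3692 and 4241 to 2059 and 1602 (-1.12 ± 0.14). The abundant nucleolar proteins moved less. NPM1 was at 46796 and 49863 under DMSO and at 38084 and 31683 under ABBV-075 (-0.48 ± 0.10), and NCL fell by 0.47 ± 0.08. The 8 members not called included BOP1 (-0.11 ± 0.48) and GRWD1 (-0.12 ± 0.19), whose groups overlapped. Between 24 and 29 members were lower without any 1 library.

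Purine and pyrimidine synthesis followed, with 14 of 18 measured genes lower and 0 higher, against 18.3% and 12.9% of all genes, and a median of -0.62. CTPS2, a CTP synthase, changed by -1.42 ± 0.14, PFAS by -1.28 ± 0.17 and PAICS, both enzymes of purine synthesis, by -1.15 ± 0.11. PAICS was at 22151 and 24697 normalized counts under DMSO and at 11522 and 9612 under ABBV-075. CAD, which starts pyrimidine synthesis, fell by 0.98 ± 0.14. IMPDH2, of guanine nucleotide synthesis, stayed within its spread at 0.07 ± 0.08. In contrast to their assembly factors, the 77 cytosolic ribosomal protein genes gave 0 higher and 0 lower in limma at a median of -0.01, with 5 at an unadjusted p under 0.05, and edgeR and DESeq2 also called 0. Their counts were 6 higher and 6 lower without HNF4G-ABBV-075 number 1.

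The promoter of NOP2, a methyltransferase of ribosomal RNA, is shown because it is the ribosome biogenesis gene with the largest fall (5028 and 4677 to 2412 and 2529 normalized counts, -0.97 ± 0.09) whose window holds the letters of a MYC-type E-box. The window runs from 250 bases before to 50 after the gene's start, as in every promoter below, it was taken from RefSeq (GRCh38.p14), it lies at chr12:6568242-6568541 on the minus strand, and the capitals mark CACGTG, which starts at position 35 after the start and reads the same on both strands. NOP2 was chosen for this after its values were seen.
NOP2: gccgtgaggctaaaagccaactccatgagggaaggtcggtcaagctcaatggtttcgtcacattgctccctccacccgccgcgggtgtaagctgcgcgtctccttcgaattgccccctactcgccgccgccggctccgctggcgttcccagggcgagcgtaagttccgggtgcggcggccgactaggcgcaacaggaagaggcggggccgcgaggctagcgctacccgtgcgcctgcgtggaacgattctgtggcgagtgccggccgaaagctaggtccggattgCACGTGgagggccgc
CACGTG stood in 9 of the 27 ribosome biogenesis promoters with a window (33.3%), against 9.87% of the 11940 tested genes with one and 7.23% of all 34943 windows. The windows of NOP16 and WDR12, the members that fell most, did not hold it. Of the members whose windows did, RRP9 (-0.64 ± 0.24), PES1 and UTP20 were not called. Among all tested genes CACGTG stood in 10.9% of windows of lower genes, 9.74% of those not called and 7.9% of those lower by at least 2. Whether the E-box bears on the fall was not tested. A match is a description of letters and says nothing of binding.

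Of the lists with at least 10 tested members, the highest median was that of replication-dependent histone genes, which encode the core and linker histones made in S phase. Of 37 measured genes 25 were higher and 0 lower, against 12.9% higher among all genes, with a median of 1.51. H2BC21 (ENSG00000184678) rose from 534 and 510 to 5369 and 5229 normalized counts (3.34 ± 0.09, adjusted p = 7.8e-06), and H2AC6 from 235 and 287 to 2303 and 2395 (3.17 ± 0.14). H3C10, an H3 gene, went from 151 and 111 to 1059 and 1154 (3.08 ± 0.16), and the linker histone H1-2 from 386 and 277 to 1258 and 1802 (2.20 ± 0.20). In each of these the groups did not overlap, as in every called gene. H4C14 showed the largest change, 4.97 ± 0.29, from 2.91 and 4.32 to 122 and 165. The 12 members not called were of low level, with group means between 5.71 (H2AC16) and 70.7 (H4C5) normalized counts in HNF4G cells, and H4C1 and H4C4 were at -0.30 ± 0.43 and -0.67 ± 0.46. Libraries were made by poly-A capture, so only polyadenylated histone transcripts are covered, and histone genes are near-identical copies among which reads may be split. Without any 1 library 22 to 29 of them were higher, and 1 was lower without HNF4G-ABBV-075 number 2.

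The promoters of H2BC21 and H4C14 are shown as those of the H2B gene and of the other histone gene with the largest rise. The octamer ATTTGCAT, bound by POU factors and known from H2B promoters, was searched on both strands, and its match in H2BC21, 46 bases before the start, is in capitals (RefSeq, GRCh38.p14). H2BC21 lies at chr1:149886633-149886932 on the minus strand and H4C14 at chr1:149832407-149832706 on the plus strand.
H2BC21: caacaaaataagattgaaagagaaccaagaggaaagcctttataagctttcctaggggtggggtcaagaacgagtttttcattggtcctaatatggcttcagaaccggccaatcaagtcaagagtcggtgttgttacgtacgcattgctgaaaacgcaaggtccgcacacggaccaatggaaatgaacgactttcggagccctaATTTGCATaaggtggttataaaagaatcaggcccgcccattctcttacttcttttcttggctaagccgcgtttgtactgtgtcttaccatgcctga
H4C14: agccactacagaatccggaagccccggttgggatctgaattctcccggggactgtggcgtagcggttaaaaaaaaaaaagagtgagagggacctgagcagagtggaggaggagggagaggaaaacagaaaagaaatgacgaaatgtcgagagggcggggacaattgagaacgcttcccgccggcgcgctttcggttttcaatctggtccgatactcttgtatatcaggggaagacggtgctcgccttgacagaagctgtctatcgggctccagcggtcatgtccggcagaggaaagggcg
The H4C14 window held no octamer. Among the 13 measured H2B genes 9 windows held it (69.2%), and among all 35 histone genes with a window 16 (45.7%), against 1.40% of tested genes. Of those 16 genes 5 were not called, namely H2AC14 (-0.32 ± 0.61, at 8.73 and 8.64 normalized counts under DMSO), H2AC8, H2AC16, H2AC21 and H2BC17. Whether the octamer bears on the rise was not tested.

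The gut and liver programme fell although HNF4G rose. All 10 HNF signature genes other than HNF4G were lower, against 18.3% of all genes. Their median was -1.40, against -2.56 for the same 10 in GFP cells, and 0 of the 10 were called by the interaction test between the lines given below. UGT2B15, which glucuronidates androgens, fell from 4334 and 5190 normalized counts to 758 and 625, MUC13, a membrane mucin, from 2600 and 2946 to 1087 and 913, and AKR1C3, a steroid-converting reductase, from 5057 and 5133 to 2371 and 2148. APOH, a plasma glycoprotein, fell by 2.59 ± 0.28 and SGK2, a kinase, by 2.05 ± 0.16. CLRN3 and ANG were the least secure, since CLRN3 lost its call without either HNF4G-DMSO library or without number 1 of HNF4G-ABBV-075, and ANG without HNF4G-DMSO number 1.

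The other gut and liver transcription factors went both ways. HNF4A, the close relative of HNF4G, fell from 101 and 84.7 normalized counts to 4.85 and 7.20 (-3.75 ± 0.46), and NR1H4, the bile acid receptor FXR, from 233 and 286 to 30.1 and 25.7 (-3.17 ± 0.23). NR5A2, a nuclear receptor of bile acid synthesis, fell by 1.49 ± 0.19, and NR1I3, the xenobiotic receptor CAR, by 2.05 ± 0.27. FOXA1, a pioneer factor of prostate and gut, rose from 15193 and 14470 to 22181 and 22003 (0.58 ± 0.07), and KLF5, an epithelial factor, by 0.73 ± 0.11. In all, of 13 measured factors 5 were lower and 4 higher, HNF4G among the higher, against 18.3% and 12.9% of all genes. Their median was -0.22, against -0.26 in GFP cells. GATA6, EHF and ONECUT2 were not called.

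Plasma protein and lipoprotein genes, products of liver, fell in 12 of 18 and rose in 1, against 18.3% and 12.9% of all genes. Their median was -1.18, against -1.11 in GFP cells. HABP2, a plasma protease, went from 327 and 290 normalized counts to 14.6 and 26.8 (-3.89 ± 0.30), ALB, which encodes albumin, from 24079 and 28575 to 9822 and 8155 (-1.55 ± 0.12), and CP, ceruloplasmin, from 457 and 500 to 101 and 61.8. F5, coagulation factor V, changed by -1.86 ± 0.19. TF, transferrin, was the member that rose, or 1 of 2 without HNF4G-DMSO number 1, from 6.79 and 10.4 to 38.8 and 43.2 (2.16 ± 0.30). APOE was at 0.02 ± 0.36, not called.

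Enzymes of steroid and drug metabolism fell in 13 of 22 and rose in 1, against 18.3% and 12.9% of all genes. Their median was -1.10, against -1.15 in GFP cells. CYP2C8, a drug-oxidizing cytochrome, was at 522 and 554 normalized counts under DMSO and at 41.7 and 42.2 under ABBV-075 (-3.65 ± 0.17), and UGT2B10, which conjugates amines, at 826 and 897 against 79.6 and 73.1 (-3.48 ± 0.30). AKR1C2, which inactivates dihydrotestosterone, fell from 1898 and 1789 to 347 and 326, and UGT1A1, the bilirubin-conjugating enzyme, from 128 and 127 to 22.3 and 23.7. All 4 were below their DMSO values in both ABBV-075 libraries, as was every gene called lower. The UGT2B and AKR1C genes are close copies among which reads may be split. ALDH1A1, which makes retinoic acid, was the 1 that rose, from 2933 and 3019 to 5201 and 4314 (0.67 ± 0.12), and SRD5A1, the main steroid reductase of advanced prostate cancer, was at 0.18 ± 0.11, not called. Without HNF4G-DMSO number 2 the counts were 8 lower and 2 higher.

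Brush border genes fell in 9 of 16 and rose in 1, against 18.3% and 12.9% of all genes. Between 6 and 8 were lower without any 1 library. Their median was -0.632, against -1.498 in GFP cells, and the difference between these medians was not tested. By the interaction test given below 1 of the 16 was called, VIL1. SI, sucrase-isomaltase, went from 242 and 289 normalized counts to 30.1 and 13.4 (-3.65 ± 0.36), CDH17, an intestinal cadherin, from 820 and 926 to 131 and 88.5 (-3.01 ± 0.21), and DPP4, a membrane peptidase, from 727 and 903 to 206 and 198. VIL1, villin, which bundles the actin of microvilli, fell far less, from 4511 and 4261 to 2747 and 2874 (-0.64 ± 0.10), and MYO1A, the brush border myosin, by 1.13 ± 0.14. EZR, ezrin, was at 0.16 ± 0.09, not called. The member that rose, CDHR2, was at 76.6 and 80.4 against 115 and 137 (0.67 ± 0.20), a call lost without any of 5 libraries.

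SLC26A3 and APOH are shown for their promoters, as the protein-coding genes with the largest falls, means of 100 normalized counts or more and the letters TTAATNATT in their windows. SLC26A3, the chloride exchanger of the colon, fell from 330 and 411 to 34.9 and 30.9 normalized counts (-3.45 ± 0.25). These letters were searched on both strands, and matches are in capitals. In SLC26A3 (chr7:107803174-107803473, minus strand) 2 matches that overlap each other start 82 and 80 bases before the gene's start, and in APOH (chr17:66229366-66229665, minus strand) 1 match starts 137 bases before it (RefSeq, GRCh38.p14). Both genes were chosen after their values were seen.
SLC26A3: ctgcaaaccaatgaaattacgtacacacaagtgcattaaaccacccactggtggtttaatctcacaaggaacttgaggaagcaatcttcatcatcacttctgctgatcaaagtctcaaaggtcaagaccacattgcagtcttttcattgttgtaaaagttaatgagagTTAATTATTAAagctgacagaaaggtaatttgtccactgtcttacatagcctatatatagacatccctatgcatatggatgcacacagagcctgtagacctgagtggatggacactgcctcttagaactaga
APOH: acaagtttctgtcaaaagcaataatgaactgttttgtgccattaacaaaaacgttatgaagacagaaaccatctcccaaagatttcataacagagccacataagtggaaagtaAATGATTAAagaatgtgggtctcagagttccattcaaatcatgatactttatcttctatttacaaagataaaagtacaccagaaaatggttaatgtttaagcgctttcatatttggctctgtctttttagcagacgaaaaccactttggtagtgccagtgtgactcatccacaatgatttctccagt
TTAATNATT stood in 13 of 342 promoters of genes lower by at least 2 (3.80%), in 2 of 89 of those higher by at least 2 (2.25%) and in 0.712% of 11940 tested genes with a window. ANXA10, PKHD1, HAO1 and AFP were others of the 13. Among the gut and liver lists above, the letters stood in 1 of 7 windows of the HNF signature, that of APOH. They stood in 0 of 15 windows of plasma protein and lipoprotein genes, 0 of 17 of steroid and drug metabolism and 0 of 11 of the brush border. The window of WDR12, a ribosome biogenesis gene, also held them. The HNF4-type letters CAAAGTCCA stood in 3 of the 342 (0.877%), against 0.251%. No list or count here was tested against the other, and no binding was measured in these libraries.

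**Figure D2:**
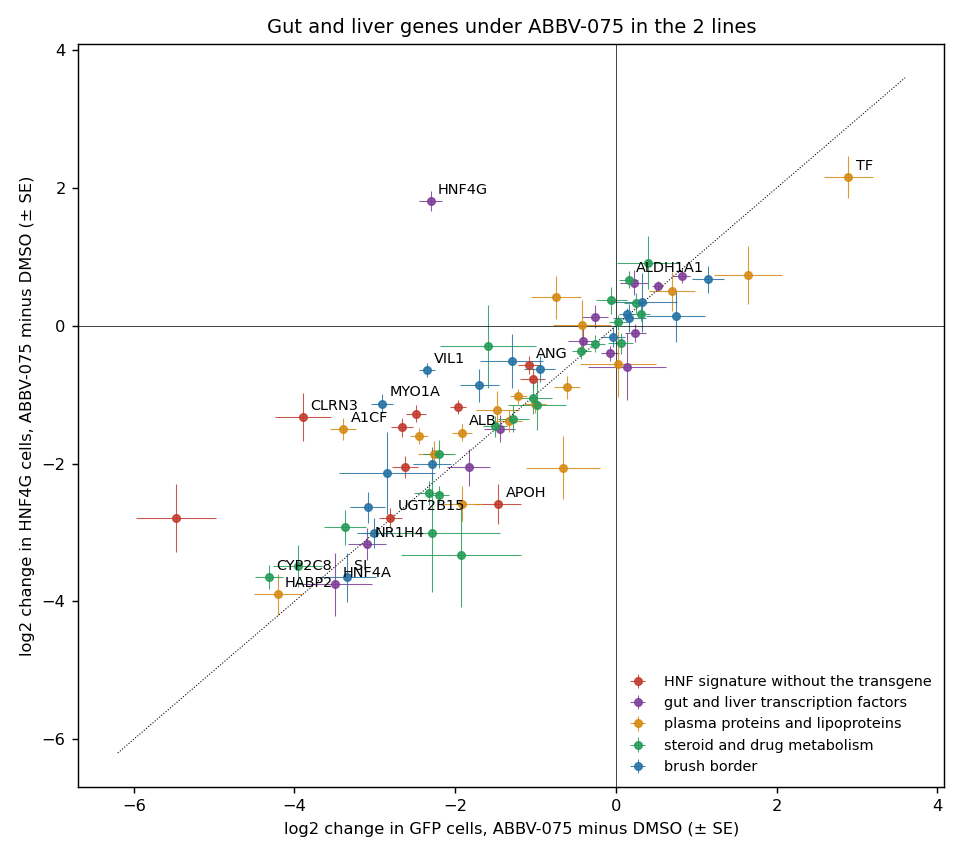
Log2 change with ABBV-075 in HNF4G cells (vertical axis) against that in GFP cells (horizontal axis), each with its SE, for the measured genes of 5 gut and liver lists (colours); the dotted line marks equal change. HNF4G lies at -2.30 in GFP cells and 1.81 in HNF4G cells, VIL1 and MYO1A lie above the line, and CYP2C8, HABP2, SI and HNF4A lie near it.

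The change with ABBV-075 was then compared between the lines by the interaction, the change in HNF4G cells minus that in GFP cells. Of 17876 genes 2 were called (0.0112%), HNF4G at 4.11 ± 0.21 (adjusted p = 8.1e-04) and VIL1 at 1.71 ± 0.14 (adjusted p = 0.018). An unadjusted p under 0.05 was found for 452 genes, fewer than the 0.05 share that this threshold would give on average where no gene differs. The small number of calls does not show that the lines changed alike. edgeR called 2 and DESeq2 10. With GC content and length corrected for 18 were called, and without both libraries of low GC content 364, a fit in which each HNF4G group keeps 1 library and the spread comes from the GFP groups. VIL1 was at 3181 and 2883 normalized counts in GFP-DMSO and 589 and 593 in GFP-ABBV-075, so that it kept more of its level under ABBV-075 in HNF4G cells. Its call was lost without either GFP-DMSO library, either GFP-ABBV-075 library or either HNF4G-DMSO library. CCN2, a matricellular protein, stood at 2041 and 1649 under DMSO and at 2197 and 2065 under ABBV-075 in HNF4G cells (0.22 ± 0.13), with an interaction of 1.71 ± 0.19 that missed the threshold (adjusted p = 0.078). CLRN3 had an interaction of 2.57 ± 0.49, with a larger SE, and was not called (adjusted p = 0.74). Across tested genes the changes in the 2 lines had Pearson's r = 0.90, a description over genes, which are not independent replicates and take their SE from the same fit, and 5538 of the 5575 genes called in HNF4G cells had the same sign in GFP cells.

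**Figure D3:**
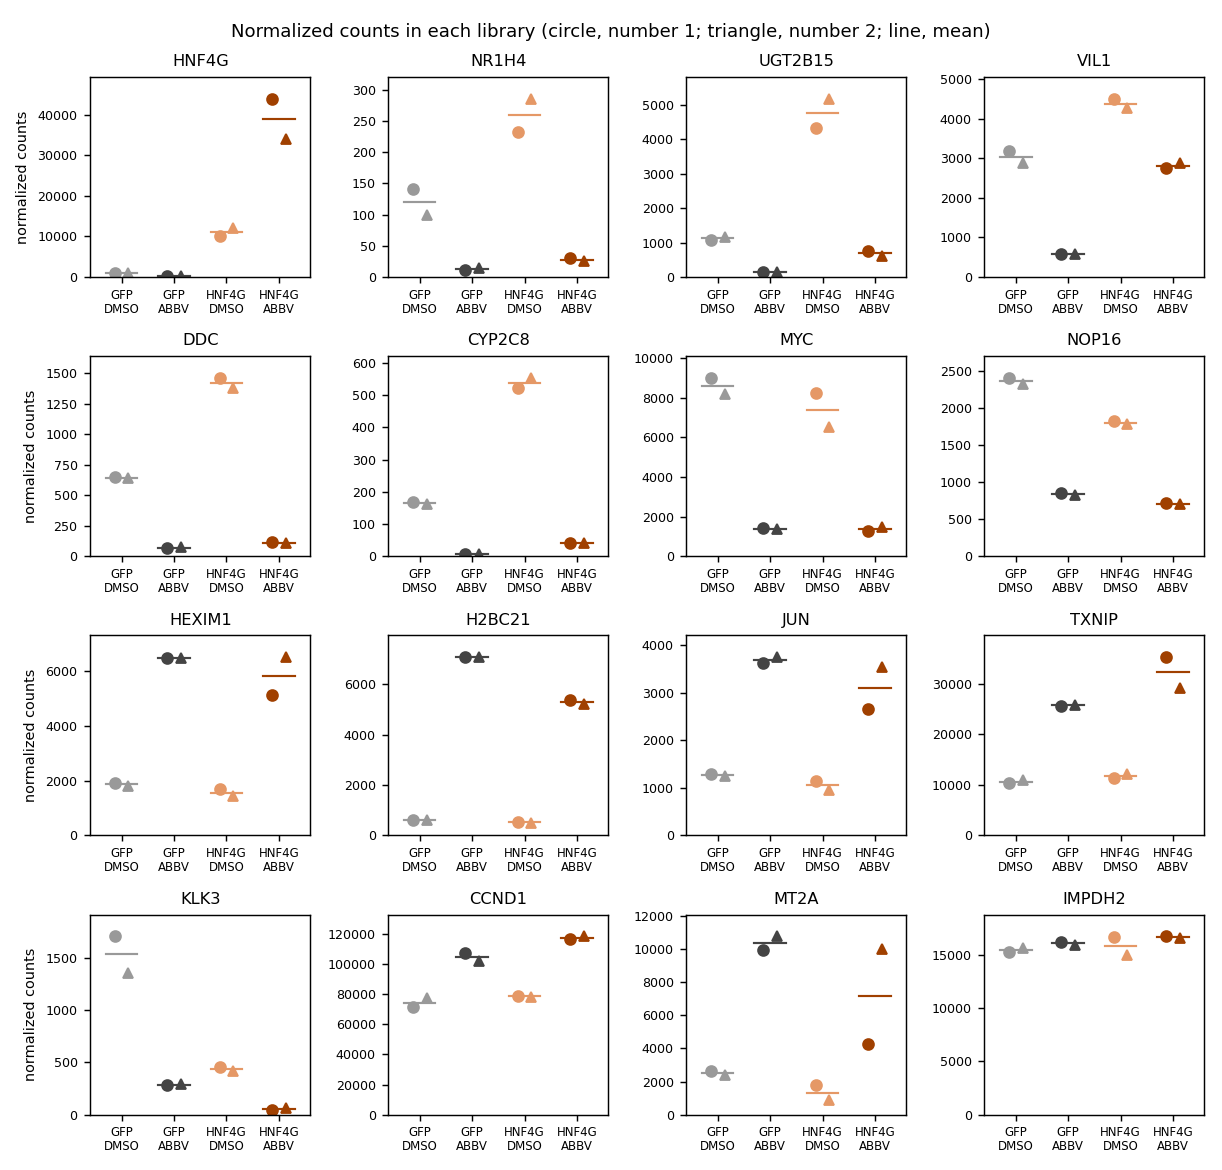
Normalized counts of 16 genes (vertical axes, from 0) in each of the 8 libraries by group (horizontal axes), with circles for number 1, triangles for number 2 and lines for the mean of 2. H2BC21 was at 5369 and 5229 in HNF4G-ABBV-075 against 534 and 510 in HNF4G-DMSO, while the HNF4G groups of IMPDH2 overlap.

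The counts of the lists that follow stand against 12.9% higher and 18.3% lower among all genes. Immediate early genes, which code for fast-induced transcription factors and regulators, rose in 16 of 23 with a median of 0.87. The higher count was 11 without HNF4G-DMSO number 2 and 14 without any 1 GFP library. FOS went from 170 and 137 normalized counts to 485 and 587 (1.80 ± 0.17), JUN from 1141 and 956 to 2648 and 3540 (1.55 ± 0.15), and EGR1 from 598 and 436 to 1276 and 1371 (1.37 ± 0.15). ZFP36, which speeds decay of AU-rich transcripts, rose by 1.69 ± 0.21 and ATF3, a stress-induced factor, by 1.16 ± 0.10. Not all took part. KLF10 was at 0.10 ± 0.10 and NR4A1 at 0.31 ± 0.42, neither called, and BTG2, an antiproliferative factor, was the only 1 of 23 called lower (-0.37 ± 0.11), a call lost without any 1 of the 8 libraries. Of 18 measured genes of the ERK pathway 4 were higher and 3 lower, and 5 were lower without HNF4G-ABBV-075 number 1. LIF, a cytokine, fell from 81.4 and 70.0 to 1.94 and 5.15 (-4.17 ± 0.39) and ETV4, an ETS factor, by 1.97 ± 0.25, while its relative ETV5 rose by 1.35 ± 0.12.

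Genes of glucose metabolism went both ways. Glycolytic genes fell in 12 of 24 and rose in 4, with HK2, a hexokinase, at 3387 and 3694 against 1453 and 1291 normalized counts (-1.37 ± 0.10), PFKP, a phosphofructokinase, at -1.51 ± 0.22 and ENO1, enolase, at 35736 and 31957 against 15229 and 17534 (-1.05 ± 0.10). PDK4, which shuts pyruvate out of mitochondrial oxidation, rose from 1815 and 2075 to 6221 and 4928 (1.51 ± 0.14). TXNIP, which lowers glucose uptake and is a target of the glucose sensor MondoA, rose from 11346 and 12064 to 35348 and 29268 (1.46 ± 0.10), and the related arrestins ARRDC4 and ARRDC3 by 1.83 ± 0.14 and 1.40 ± 0.17. In a list of TXNIP and MondoA targets that also held the gene of MondoA itself, 5 of 10 measured genes were higher and 2 lower, HK2 among the lower. The higher count was 3 without either GFP-ABBV-075 library.

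In the G1/S list of the cell cycle 17 of 32 were lower and 2 higher, with E2F2 at -1.35 ± 0.09 (3490 and 3383 to 1323 and 1365 normalized counts), CDK6 at -0.98 ± 0.16 and CDC45, a replication helicase factor, at -0.59 ± 0.10. The lower count was 10 without any 1 GFP library, and the higher count was 1 without any of these or number 2 of either HNF4G group. CCND1, cyclin D1, rose from 79052 and 78243 to 116832 and 118824 (0.58 ± 0.07). In the G2/M list 5 of 30 were lower and 1 higher, shares below those of all genes, with FOXM1 at -0.47 ± 0.09. The higher count was 3 without HNF4G-ABBV-075 number 2 and 0 without HNF4G-DMSO number 2. The lower count was 2 without any 1 GFP library, 3 without either HNF4G-DMSO library and 8 without HNF4G-ABBV-075 number 1. Of 12 measured CDK inhibitor and senescence genes 4 were higher and 2 lower, IGFBP3 and LMNB1, and 1 was lower without HNF4G-DMSO number 2. CDKN2B (p15) rose from 159 and 150 to 678 and 590 (2.03 ± 0.13), CDKN2D (p19) by 1.10 ± 0.16 and CDKN1B (p27) by 0.61 ± 0.08. Of 32 measured genes of homologous recombination and the Fanconi pathway 7 were lower, a share close to that of all genes, and 0 higher, or 1 and 2 without number 1 and number 2 of HNF4G-ABBV-075. RAD51D was at 1238 and 1218 against 496 and 447 (-1.38 ± 0.13).

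Of 35 measured genes known to be induced by androgen 7 were higher and 11 lower. KLK3, which encodes prostate-specific antigen, fell from 457 and 414 normalized counts to 46.6 and 60.7 (-3.01 ± 0.17), its neighbour KLK2 from 1548 and 1509 to 361 and 386 (-2.03 ± 0.11) and ABCC4, a drug and nucleotide exporter, from 260 and 316 to 54.4 and 48.4 (-2.46 ± 0.18). Others rose in the same cells. ACSL3, a lipid enzyme, went from 6031 and 7016 to 14171 and 11475 (0.97 ± 0.12), SLC45A3 from 2855 and 2416 to 4446 and 5960 (0.97 ± 0.15), and NNMT, a nicotinamide methyltransferase, from 10.7 and 13.8 to 65.0 and 83.4 (2.50 ± 0.23). FOLH1, prostate-specific membrane antigen, rose by 0.58 ± 0.11, and ACP3, prostatic acid phosphatase, fell by 2.23 ± 0.14.

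In the insulin-like growth factor axis 7 of 12 fell and 1 rose. IGFBP3, a binding protein of the growth factors, went from 6349 and 6167 to 1507 and 1482 normalized counts (-2.07 ± 0.09), IGF2BP1, which stabilizes transcripts, from 178 and 193 to 67.9 and 74.1, and IRS2, an adaptor of the receptor, rose from 1964 and 1829 to 3175 and 3179 (0.75 ± 0.09). Notch and Wnt target genes fell in 8 of 19 and rose in 1, with LGR5, the R-spondin receptor of stem cells, at 913 and 1009 against 167 and 136 (-2.66 ± 0.15) and DKK1, a secreted Wnt inhibitor, at -1.51 ± 0.15. HEYL, a Notch target, was the 1 that rose (1.66 ± 0.32).

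Interferon and antigen presentation genes divided evenly, with 7 of 24 higher and 8 lower. OAS3, an antiviral enzyme, fell from 2192 and 1910 to 371 and 358 normalized counts (-2.49 ± 0.12) and TAP2, a peptide transporter, from 524 and 549 to 152 and 135 (-1.90 ± 0.13). STAT2, which carries the interferon signal, rose from 1336 and 1398 to 2620 and 2331 (0.85 ± 0.11), IRF7 by 2.10 ± 0.39 and B2M, the light chain of class I molecules, by 0.51 ± 0.10. Of 12 measured genes of metallothioneins, which bind zinc and copper, and of zinc transport 5 were higher and 1 lower, or 2 lower without HNF4G-ABBV-075 number 2. MT2A was at 1795 and 856 under DMSO and at 4287 and 10012 under ABBV-075 (2.40 ± 0.42), MT1X at 117 and 113 against 411 and 464 (1.91 ± 0.13) and MT1E at 2.13 ± 0.21. In MT2A the library of low GC content was the lower in each group, and metallothionein genes are close copies. SAT1, which degrades polyamines, rose from 1390 and 1373 to 5214 and 4436 (1.80 ± 0.11), while AMD1 and SMS, which make them, fell by 0.69 ± 0.13 and 0.65 ± 0.11. Lysosome and autophagy genes were higher in 9 of 38 and lower in 2, with the sialidase NEU1 at 1.40 ± 0.11 and the mitophagy receptor BNIP3L at 1.21 ± 0.12. The count of higher members was 14 without HNF4G-ABBV-075 number 1, that of lower members 4 without number 2, and ATG9B, of the same list, fell by 3.21 ± 0.23.

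**Figure D4:**
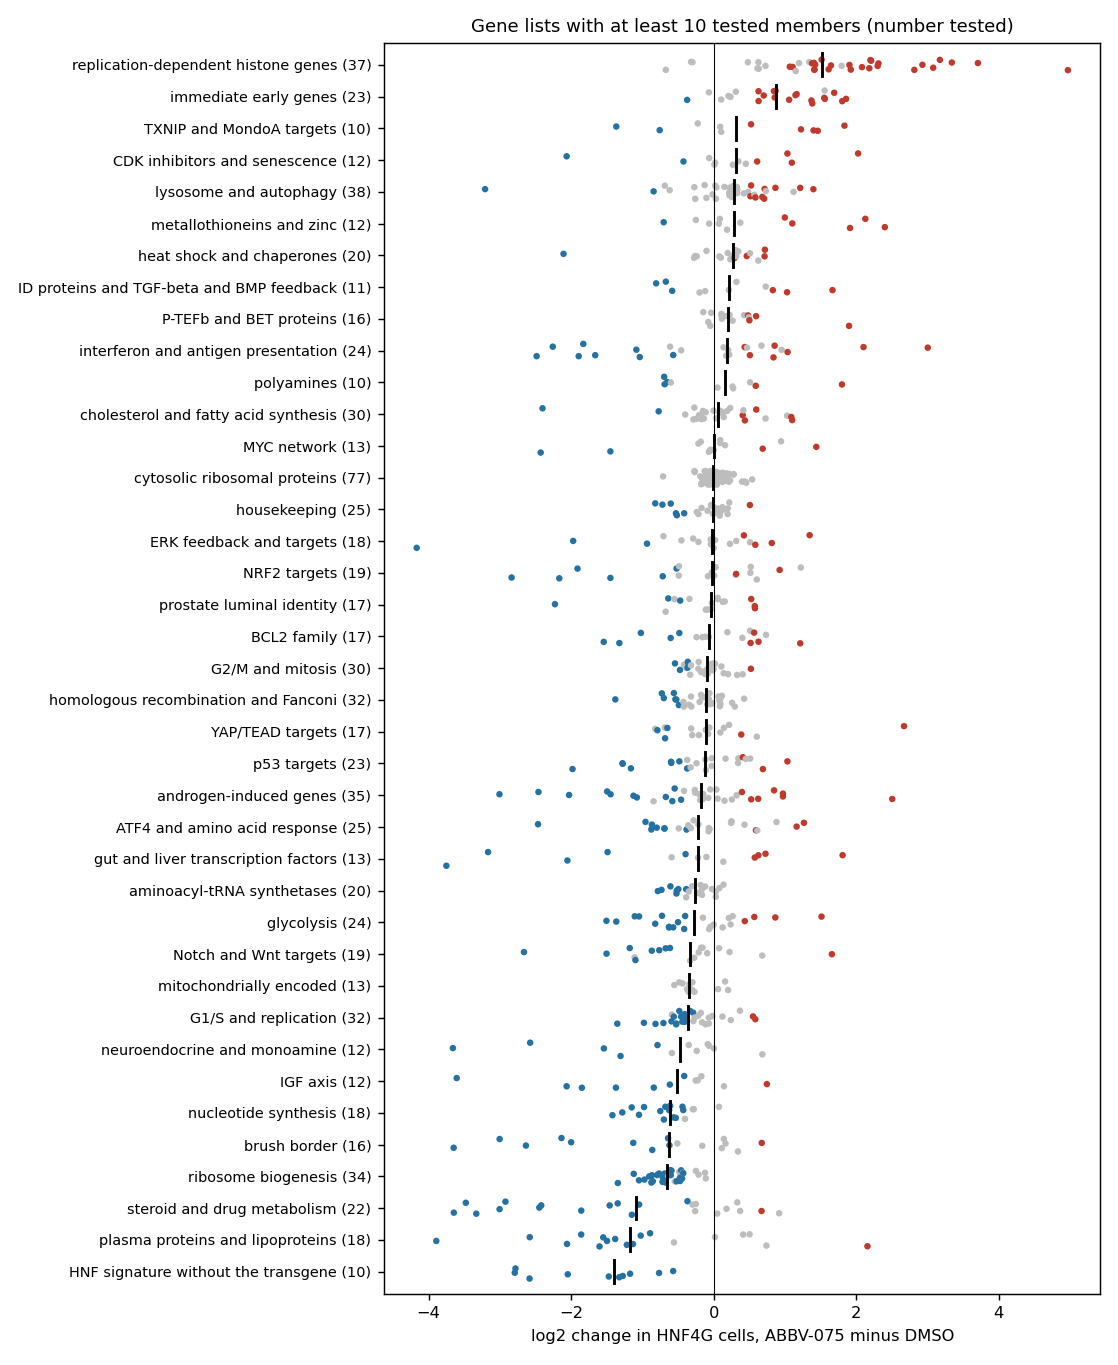
Log2 change with ABBV-075 in HNF4G cells (horizontal axis) of every tested member of the lists with at least 10 tested members (vertical axis, number tested in brackets), red where called higher, blue where called lower and grey where not called, with black lines at list medians. The medians run from -1.40 for the HNF signature to 1.51 for replication-dependent histone genes, and the ribosomal protein genes lie at 0 on both sides.

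Some of the largest changes were in protein-coding genes of no list here. ADARB1, an RNA-editing deaminase, went from 598 and 577 normalized counts to 4565 and 4623 (2.96 ± 0.11). PEG10, a retrotransposon-derived imprinted gene, was at 53664 and 59363 under DMSO and 345931 and 287892 under ABBV-075 (2.48 ± 0.10). IQCN rose by 2.93 ± 0.20, ACSBG1, a fatty acid activating enzyme, by 2.75 ± 0.16 and TPPP, a tubulin-binding protein, by 2.54 ± 0.20. BCAT1, a transaminase of branched-chain amino acids, fell from 457 and 626 to 31.1 and 37.1 (-3.94 ± 0.20), ZNF532 by 3.79 ± 0.18, and CCKBR, the gastrin receptor, from 298 and 226 to 11.6 and 27.8 (-3.77 ± 0.37). DDC, DOPA decarboxylase, of the neuroendocrine and monoamine list, fell from 1463 and 1375 to 115 and 107 (-3.66 ± 0.14). TNC, tenascin C of the extracellular matrix, fell from 3819 and 3798 to 416 and 408 (-3.21 ± 0.10), and the focal adhesion protein TNS3 by 3.24 ± 0.17.

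Long non-coding genes were higher in 329 (15.5%) and lower in 304 (14.3%) of 2121. MIR7-3HG, the host transcript of a miR-7 gene, went from 89.2 and 64.0 to 460 and 475 normalized counts (2.61 ± 0.18), and TMEM105 from 26.2 and 11.2 to 257 and 330. PCAT14, a prostate cancer transcript, fell from 624 and 599 to 158 and 125 (-2.12 ± 0.15), DRAIC, first described in prostate cancer, from 316 and 341 to 102 and 54.5 (-2.12 ± 0.26), and LINC00511 by 2.08 ± 0.15. Whether counting used strand is not given in the sources used here, so reads of antisense genes such as SLC9A3-AS1 (2.19 ± 0.39) cannot be told apart from those of their partners. Processed pseudogenes were called less, 97 of 1271 higher (7.63%) and 28 lower (2.20%). Their median SE was 0.30, against 0.15 in protein-coding genes, and their median change was 0.21, against -0.02 in GFP cells.

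The spread between libraries differed with their GC content. Within HNF4G-DMSO the SD of the log2 difference between the 2 libraries was 0.42 across genes and within HNF4G-ABBV-075 it was 0.53, against 0.31 and 0.33 in the GFP groups. The difference between the libraries of a pair was correlated with GC content across genes at r = 0.61 and r = -0.67 in the HNF4G groups, against 0.11 and -0.067 in the GFP groups. Since number 2 was the library of low GC content under DMSO and number 1 under ABBV-075, the change read from same-numbered libraries ran in opposite directions along GC content. For protein-coding genes of the lowest quintile of GC content its median was 0.25 from DMSO 1 to ABBV-075 1 and -0.24 from DMSO 2 to ABBV-075 2, and for those of the highest quintile it was -0.59 and 0.69. Between libraries of like GC content the same medians were much closer to 0, at -0.04 and 0.05 in the lowest quintile and 0.18 and -0.03 in the highest. The fitted change had a median of 0.01 in the lowest quintile and 0.08 in the highest.

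Calls were fewer and SEs larger among genes of high GC content. In the highest quintile the median SE was 0.29, against 0.12 to 0.15 in the other 4, and 9.11% of genes were higher and 14.7% lower, against 13.7% and 25.7% in the middle quintile. With GC content and length corrected for, which lowered the SD within the HNF4G groups to 0.32 and 0.37, 29.1% were higher and 28.5% lower in the highest quintile. The correction gained 3975 calls and lost 58, and 5517 were called both ways. All 5575 called genes had the same sign in all 4 pairings of an HNF4G-DMSO with an HNF4G-ABBV-075 library, as did 10550 of the 17876 tested. JUNB, a partner of FOS, was one of those not called. It was at 382 and 155 normalized counts under DMSO and at 383 and 1340 under ABBV-075 (1.56 ± 0.57, adjusted p = 0.074), with the library of low GC content the lower of each group.

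**Figure D5:**
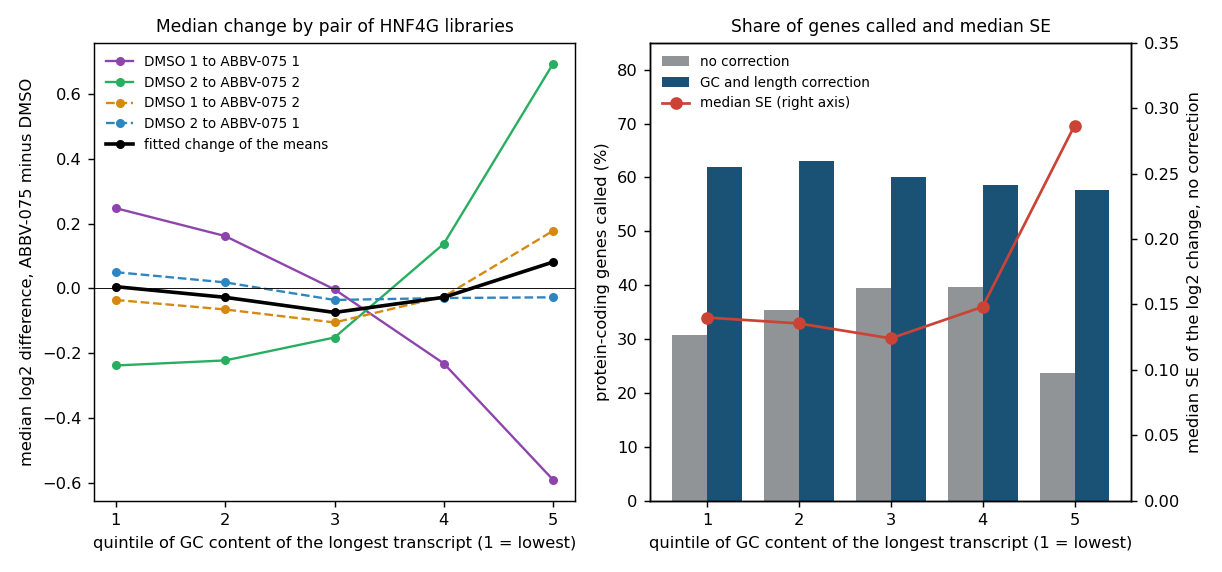
Left, median log2 difference between ABBV-075 and DMSO libraries (vertical axis) of protein-coding genes in quintiles of GC content (horizontal axis), for the 4 pairings of HNF4G libraries and for the fitted change. Right, percentage of those genes called in each quintile without (grey) and with (blue) correction for GC content and length, and the median SE of the uncorrected change (red line, right axis), which was 0.29 in the highest quintile.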

How the data were processed

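RNA of 22Rv1 cells carrying an HNF4G or a GFP transgene, treated with 25 nM ABBV-075 or DMSO for 24 hours, was sequenced after poly-A capture in 8 libraries, 2 for each of 4 groups. The authors deposited 1 table of normalized counts, a signal on a linear scale in which each library's reads are divided by a size factor. The submitters' processing notes name STAR 2.6, and the paper's methods name hg38. Neither the counting tool and its strand setting nor the origin of the size factors is given in the sources used here. In the methods log2 TPM values are described, while the deposited signal is not scaled per length, so no levels per length were compared between genes, and the level of a gene means its normalized counts. Every value was within 0.01 of a whole number of reads after division by the value of 1 read (100% of values), and these recovered counts gave the depths. No column went unused. Of 57605 entries 2 repeated an identifier with identical values and were dropped, and 17600 had no symbol in the table.

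The 17876 genes whose mean over the 8 libraries was 10 or more were tested by limma 3.58.1 in R 4.3.3, with an intensity trend, on log2(normalized count + 1), as 4 group means over all 8 libraries, so that each SE draws on the spread in the GFP groups too. A fold change on this scale understates that of low genes. P-values were adjusted over all genes by the Benjamini-Hochberg method. GC content, length and biotype came from GENCODE 44 for 17861 of the 17876 genes, and promoters from RefSeq (GRCh38.p14) for 11940. The correction for GC content and length removed each library's trend of deviations from the mean of all libraries. Alternatives were edgeR 4.0.16 and DESeq2 1.42.0 on the recovered counts, other scalings, pseudocounts (0.5 and 8) and filters (none, and a mean of 100), limma without trend and in its robust form, the 4 HNF4G libraries only, the replicate number as a block, and each library or both libraries of low GC content left out. The scripts were tested on simulated data. Some genes are not reported here.

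The genes, gene lists, motifs and tests were chosen with earlier results of these data known. Named genes were a fixed set, the 15 largest changes each way among called protein-coding genes with a mean of 100 or more that kept their call under the correction and without each HNF4G library, 5 long non-coding genes each way by the same rule, and up to 3 called members each way of each list with the members opposite to most. For the interaction up to 8 called genes each way were named. The other genes given beside them, called or not, were chosen after their values were seen.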

Additional observations from a re-analysis of the deposited data

Results flagged for a closer look

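A difference between the lines in the change with ABBV-075 was called for 2 genes by the interaction test over all 17876 genes (limma, adjusted p under 0.05). HNF4G, which carries the transgene in the HNF4G cells, had an interaction of 4.11 ± 0.21, with a change of 1.81 in HNF4G cells and -2.30 in GFP cells, and it was called under every alternative run. VIL1, villin, had an interaction of 1.71 ± 0.14, with a fall in both lines that was smaller in HNF4G cells. The VIL1 call was also lost in the fits with a replicate block, with and without the correction for GC content and length, and in limma without its trend. Groups of 2 libraries allow no search for a library that stands apart within its group.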

How the results depend on the processing

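The 5575 calls in HNF4G cells, 2304 higher and 3271 lower, became 2348 (743 higher, 1605 lower) where a log2 change of at least 1 was also asked for, and 2785 (889 and 1896) where the spread came from the 4 HNF4G libraries only. They became 9492 (4803 and 4689) when GC content and length were corrected for, 9459 (4595 and 4864) where that correction was made within groups, and 8507 (3980 and 4527) without both libraries of low GC content, where each HNF4G group keeps 1 library that is assumed to vary like the GFP groups. There the ribosomal protein genes, none of them called in the fit reported, gave 15 higher and 20 lower, and the 13 mitochondrially encoded genes 0 and 10. Without 1 library at a time the totals ran from 3850 to 6298, the higher from 1462 to 2714 and the lower from 2388 to 3584. edgeR called 5725 genes and DESeq2 4591, and other scalings, pseudocounts, filters and limma settings also stayed within 1.5 times of the total. The interaction, with 2 calls, gave between 1 and 3 without 1 library, 1 in limma without trend, 10 in DESeq2, 18 after the correction, 17 with it within groups and 364 without both libraries of low GC content. Same-numbered libraries of the 2 HNF4G groups deviated in opposite directions (r = -0.595 across genes). The library of low GC content was number 2 under DMSO and number 1 under ABBV-075, so this cannot tell whether the replicate numbers pair the samples. As a block the replicate numbers gave 4307 calls (1639 higher, 2668 lower) and 1 interaction, and with the correction 8920 (4484 and 4436) and 9. A crossed pairing, chosen after seeing the data, gave 6080 calls (2603 and 3477) and 3 interactions, and 10459 (5154 and 5305) in the 4 HNF4G libraries alone. The cause of these differences was not tested.

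Of 5723 values of the 213 named genes under 27 alternatives 5479 kept direction and side of the threshold, 240 lost the call, 4 gained one and 0 reversed. These counts were in part set by the choice of genes. Of the 213, 211 were called, and the largest changes were also chosen for keeping their call under some of these alternatives. The median of all genes was 0.02 as deposited and between -0.0008 and 0.06 under other scalings. With 2 libraries a group, precision rests on the pooled spread of 8 libraries, and in genes of low level or high GC content a change that was not called is not shown to be absent.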

Other observations

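Other gene groups are given here for HNF4G cells, with counts to be read against the 12.9% of all genes that were higher with ABBV-075 and the 18.3% that were lower. Neuroendocrine and monoamine genes were lower in 5 of 12 and higher in 0. CHGA, chromogranin A, was at 135 and 111 normalized counts under DMSO and at 32.0 and 53.5 under ABBV-075 (-1.54 ± 0.27), CHGB fell by 0.79 ± 0.11, and BEX1 went from 3709 and 3896 to 1585 and 1485 (-1.31 ± 0.10). ENO2 was at -0.07 ± 0.10, not called. Matrix genes that mark stromal cells elsewhere were measured at low to moderate levels, and 3 of 5 were lower. LUM, lumican, was at 935 and 1042 under DMSO and at 222 and 147 under ABBV-075 (-2.44 ± 0.19), DCN, decorin, at 39.8 and 43.2 against 1.94 and 3.09, and COL3A1, a fibrillar collagen, at 37.8 and 27.7 against 0 and 1.03. NGFR, the low-affinity neurotrophin receptor, rose from 19.4 and 11.2 to 128 and 180 (3.28 ± 0.35).

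Of 11 measured ID genes, which encode inhibitors of basic helix-loop-helix factors, and genes of TGF-beta and BMP feedback 3 were higher and 3 lower. ID1 went from 3071 and 2090 to 6016 and 10748 normalized counts (1.67 ± 0.27), ID2 rose by 0.83 ± 0.08 and ID4 by 1.03 ± 0.09, ID3 was not called (0.73 ± 0.29), and SMAD6 and SMAD7, feedback inhibitors of BMP and TGF-beta signalling, fell by 0.81 ± 0.14 and 0.58 ± 0.12. Genes of the ATF4 and amino acid response were lower in 8 of 25 and higher in 3, or 8 higher without HNF4G-ABBV-075 number 1, with STC2, a secreted glycoprotein, at 916 and 898 against 165 and 162 (-2.47 ± 0.12) and ASNS, asparagine synthetase, at 140 and 119 against 283 and 343 (1.27 ± 0.16). Aminoacyl-tRNA synthetases were lower in 7 of 20 and higher in 0. In the BCL2 family 5 of 17 were lower and 4 higher, BCL2 itself at 833 and 843 against 430 and 394 (-1.02 ± 0.11). The family's lower count was 3 without either HNF4G-DMSO library, and its higher count 7 without HNF4G-ABBV-075 number 1 and 2 without HNF4G-DMSO number 2. Of 23 p53 targets 8 were lower, 5 without any 1 GFP library, and 3 higher, 6 without HNF4G-ABBV-075 number 1. Of 30 genes of cholesterol and fatty acid synthesis 5 were higher and 2 lower, 9 and 5 without HNF4G-ABBV-075 number 1, and 12 and 9 with GC content and length corrected for. INSIG1, which restrains sterol synthesis, went from 13423 and 14798 to 31821 and 28214 (1.09 ± 0.09).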
